A study of Mus musculus with 8 samples.

Results

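The 50 genes described here encode the chaperones and folding enzymes of the endoplasmic reticulum (ER), its degradation machinery, the sensors of the unfolded protein response, and the factors and target genes of the integrated stress response. They were chosen by name for their known roles, with earlier results of these data known. Of the 50 genes, 47 were among the 10588 genes tested, and 39 of them passed the read filter in every mouse. Atf3, Trib3 and Mthfd2 had no row among the named genes past that filter, so no value is given for them.

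RNA sequencing was performed on poly(A)+ RNA of right cerebral cortex from 4 bigenic mice and 4 nontransgenic mice, with 3 males in each group. Bigenic mice, of strain C57BL/6 and with both the Camk2a-tTa and the deltaNLS-hTDP-43 transgene, express human TDP-43 that lacks a working nuclear localization signal (ΔNLS-hTDP-43), a model of cytoplasmic mislocalization of this RNA-binding protein. Nontransgenic mice carried neither transgene and were of the same strain. Both groups were fed doxycycline, which represses the transgene, until 28 days of age and were studied after 10 days without it. The Camk2a promoter drives the transactivator, so the transgene is expressed where that promoter is active, mainly forebrain excitatory neurons, whereas the RNA came from the whole cortical tissue. In such bulk RNA, fewer cells of a type and less RNA per cell cannot be told apart.

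Secreted and membrane proteins fold in the ER with the help of chaperones, and terminally misfolded ones are returned to the cytosol and degraded (ER-associated degradation). When unfolded proteins accumulate, 3 sensors, PERK (Eif2ak3), IRE1 (Ern1) and ATF6, start the unfolded protein response: ATF6 and the XBP1 protein made after IRE1 splices its mRNA induce chaperones and degradation factors, and PERK phosphorylates the translation factor eIF2α. Other kinases phosphorylate eIF2α as well, and the program that follows from any of them, with its transcription factors ATF4 and CHOP (Ddit3), is called the integrated stress response. Its targets include genes of amino acid transport and synthesis and the phosphatase subunit that reverses eIF2α phosphorylation. Splicing of Xbp1, phosphorylation and protein levels were not measured here.

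Expression was measured as deposited normalized counts, 1 transcript for each gene, and mice are numbered in the order of the deposited columns. Groups were compared with limma on log2(normalized count + 1) over all 10588 genes, and a gene was called higher or lower at a Benjamini-Hochberg adjusted p below 0.05. Values after ± are standard errors of log2 fold changes unless marked SD. The columns summed to between 20125748 and 21980950 normalized counts, and the reads estimated to lie behind them ranged from 10600000 (bigenic mouse 2) to 31900000 (bigenic mouse 4). At these depths 3 reads correspond to 1.94 to 6.20 normalized counts, far below the level of each of the 47 genes. Bigenic mouse 2 stood apart from the other bigenic mice in a principal component analysis, at -46.0 on the first component against -15.1 to -12.8. The row without a symbol that stands for the human transgene was at 35890 ± 5703 normalized counts (SD, n = 4) in bigenic and 29.0 ± 34.5 (SD, n = 4) in nontransgenic mice.

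Among the 47 genes, 17 were higher in bigenic mice (36.2%, against 20.5% of all genes tested) and 5 were lower (10.6%, against 15.4% of all genes), so 22 were called in all (46.8%, against 35.9% of all genes). The calls were spread unevenly over the roles, as a description that was not tested. The transcription factors, feedback regulators and amino acid genes of the integrated stress response accounted for 10 of the 17 higher genes. By ratio of group means they were led by Chac1 (3.23-fold), Atf4 (2.58-fold), Ddit3 (2.25-fold) and Sesn2 (2.10-fold). Chac1 and Sesn2 reached the read filter in bigenic mice alone, so a gene of their nontransgenic level enters the test only where it is higher in bigenic mice. Of the other 45 genes 15 were called higher. With the filter applied in every mouse, 39 genes were left and 14 of them were called higher. Chac1, Sesn2 and Shmt2 were not among the 39 genes. Genes of ER-associated degradation gave 4 more of the 17, among them Os9 and Edem3. Of the 16 chaperones and disulfide isomerases, by contrast, 1 was called higher (P4hb) and 3 lower (Creld2, Pdia3 and Pdia6), and the most familiar marker of the unfolded protein response, Hspa5, was at 0.672 of its nontransgenic level without passing the test. The groups did not overlap in 20 of the 47 genes (17 above and 3 below), whereas 39.0% of all genes tested did not overlap, a share close to that of these genes. Leaving out 1 mouse at a time gave 12 to 18 genes called higher and 3 to 8 called lower, the 8 without bigenic mouse 2.

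**Figure D1:**
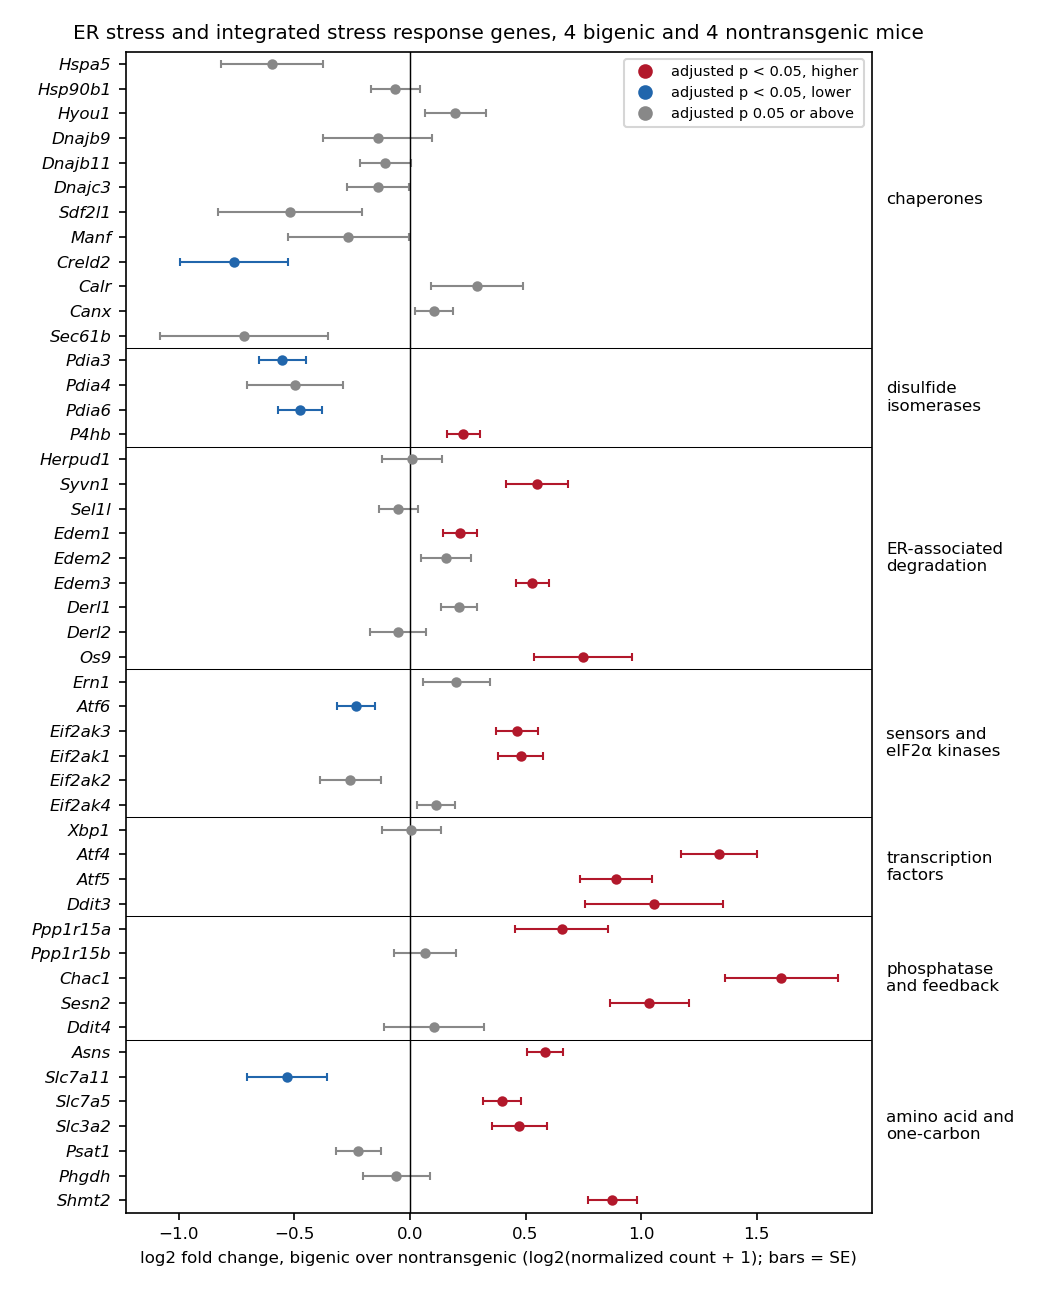
Log2 fold change (bigenic over nontransgenic, x axis) of the 47 genes tested, one point per gene, with bars for the standard error and lines between the 7 roles. Most red points, higher in bigenic mice at an adjusted p below 0.05, lie in the lower part, from Atf4 (1.34) to Shmt2 (0.88), and 3 of the 5 blue points, lower in bigenic mice, lie among the chaperones and disulfide isomerases (Creld2, -0.76).

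**Figure D2:**
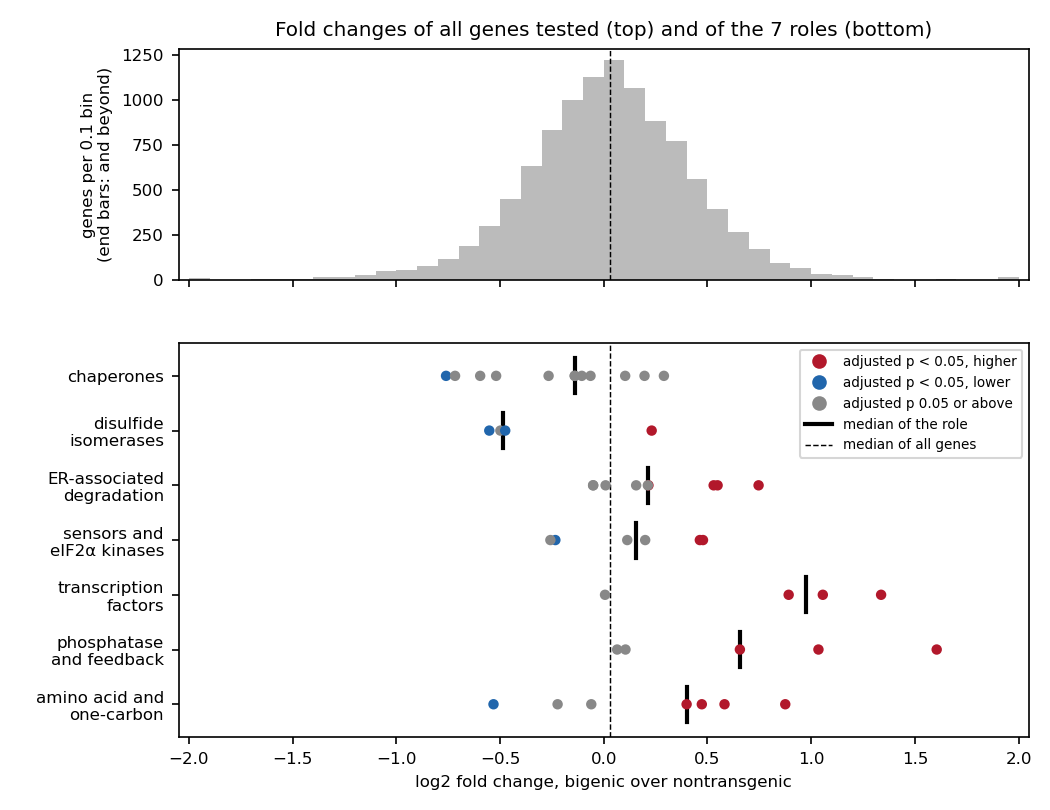
Distribution of log2 fold changes over all 10588 genes tested (top, genes per bin, end bars holding all values beyond) and the genes of each role on the same x axis (bottom, one point per gene, coloured by call). The heavy bars mark role medians, from -0.49 for the disulfide isomerases to 0.97 for the transcription factors, and the dashed line marks the median of all genes (0.03).

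The chaperones of the ER lumen were largely level or lower in bigenic mice. Of 12 chaperones, co-chaperones and translocon genes, 0 were called higher (against 20.5% of all genes) and 1 was called lower (8.33%, against 15.4%). Of the 12 genes, 2 had an unadjusted limma p below 0.05. The median log2 fold change was -0.14, against 0.03 over all genes. Hspa5 (chr2:34627490-34632051 in mm9, + strand) encodes BiP, the Hsp70 chaperone of the ER lumen, which also holds the 3 sensors inactive. Hspa5 was at 6997, 11139, 5854 and 5878 normalized counts in bigenic mice 1 to 4 and at 9253, 9496, 10430 and 15264 in nontransgenic mice 1 to 4. Bigenic mice 1, 3 and 4 lay below every nontransgenic mouse, and bigenic mouse 2 lay within the nontransgenic range. The log2 fold change of Hspa5 was -0.60 ± 0.22 (SE) with a limma adjusted p of 0.0593, and without bigenic mouse 2 it was -0.81 with an adjusted p of 0.00162. Hspa5 also passed the threshold when the columns were rescaled to the same total (adjusted p of 0.0493), after quantile normalization (0.0440) and with array weights (1.13e-05). It did not pass with either other pseudocount, with the read filter applied in every mouse or with no filter on low values. Of the 8 fits without 1 mouse, Hspa5 passed in 1, the fit without bigenic mouse 2. Without nontransgenic mouse 4, the highest of its group, the log2 fold change was -0.43 with a limma adjusted p of 0.142.

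Hsp90b1, the Hsp90 chaperone of the ER, did not separate the groups, with 13815, 16545, 13684 and 12650 normalized counts in the bigenic and 14753, 13738, 13524 and 17228 in the nontransgenic mice (log2 fold change -0.06 ± 0.11, limma adjusted p of 0.661). Calr, calreticulin, is the lectin chaperone that holds newly glycosylated proteins in the lumen. It had 13134, 23628, 12121 and 11831 normalized counts in bigenic mice 1 to 4, and the nontransgenic mice had 10955, 11715, 11410 and 13601. The high value of bigenic mouse 2 set the group mean, since the ratio of means was 1.27 with that mouse and 1.04 without it, and the groups overlapped (adjusted p of 0.279). Its membrane-bound partner Canx, calnexin, had a log2 fold change of 0.10. Per kilobase of exon, Calr (5270 normalized counts in bigenic and 4139 in nontransgenic mice), Hsp90b1 (3515 and 3673), Canx (2686 and 2491) and Hspa5 (2126 and 3163) were the 4 chaperones with the highest levels.

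Creld2, an ER-stress-induced protein with disulfide isomerase activity, was the only chaperone gene called. Creld2 stood at 225, 232, 185 and 192 normalized counts in bigenic mice 1 to 4, and its nontransgenic values were 304, 267, 310 and 611. All bigenic mice lay below all nontransgenic mice, and nontransgenic mouse 4 was well above the rest of its group. Its log2 fold change was -0.76 ± 0.23, with a limma adjusted p of 0.0293 that rose to 0.0618 without bigenic mouse 3 and to 0.0650 without bigenic mouse 4. The secreted ER protein Manf (-0.27), the BiP partner Sdf2l1 (-0.52) and the translocon subunit Sec61b (-0.72) had negative log2 fold changes without a call. Sdf2l1 was called without bigenic mouse 2 (log2 fold change -0.74, limma adjusted p of 0.0451) and with array weights, which weight each mouse by its scatter (-0.65, 0.00397), and array weights also called Manf (-0.38, 0.0140). Without nontransgenic mouse 4, the log2 fold change was -0.23 for Sdf2l1 (limma adjusted p of 0.508) and -0.04 for Manf (0.907). The J-domain co-chaperones Dnajb9 (-0.14), Dnajb11 (-0.11) and Dnajc3 (-0.14) and the nucleotide exchange factor Hyou1 (0.20) were not called either, although array weights called Dnajb11 (-0.18, adjusted p of 0.0219) and turned Dnajb9 to 0.21 (0.0499).

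Promoter sequences are shown for the chaperone genes because the element through which ATF6 and XBP1 act is present in genes that differed in direction here. The ER stress response element is CCAAT, 9 bases of any kind and CCACG. It was searched on both strands of the window from 250 bases before to 50 bases after each RefSeq gene start (GRCm38.p6, a later build than the mm9 of the expression values), which was given for 44 of the 50 genes. The element was found in 8 of these 44 genes and in 0.119% of all 32851 windows. Only exact matches of the fixed bases were counted, so copies that differ at any of these bases are neither listed nor marked. The 8 genes are listed with 10 bases on each side, 5′ to 3′ on the strand that carries the element, with its fixed bases in capitals.
Hspa5, chr2:34772015-34772053, + strand: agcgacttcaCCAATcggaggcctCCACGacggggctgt
Hsp90b1, distal copy, chr10:86705628-86705666, - strand: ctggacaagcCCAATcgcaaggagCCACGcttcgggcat
Hsp90b1, proximal copy, chr10:86705523-86705561, + strand: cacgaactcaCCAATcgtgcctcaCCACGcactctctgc
Dnajc3, chr14:118937817-118937855, + strand: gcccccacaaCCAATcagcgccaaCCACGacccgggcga
Creld2, chr15:88819510-88819548, - strand: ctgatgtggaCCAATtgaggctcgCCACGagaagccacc
Calr, chr8:84847065-84847103, + strand: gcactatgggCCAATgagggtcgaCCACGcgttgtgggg
Canx, chr11:50325790-50325828, - strand: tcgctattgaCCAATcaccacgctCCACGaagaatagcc
Pdia6, chr12:17266481-17266519, + strand: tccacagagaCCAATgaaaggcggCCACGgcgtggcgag
Syvn1, chr19:6046522-6046560, + strand: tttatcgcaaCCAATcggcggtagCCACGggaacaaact

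The element lay between 26 bases (Syvn1) and 194 bases (the distal copy of Hsp90b1) before the gene start. Of the 8 genes that carry it, Syvn1 was called higher, Creld2 and Pdia6 were called lower, and Hspa5, Hsp90b1, Dnajc3, Calr and Canx were not called. The second form of the element (ERSE-II), ATTGG, any base and CCACG, was found in Herpud1 and Dnajb11 and in 0.0365% of all windows, and neither gene was called. The unfolded protein response element TGACGTGG was in 0 of the 44 genes and in 0.676% of all windows. The promoter of Hspa5 is given in full because this gene stands for the whole response, as the 250 bases before its start with the fixed bases of the element in capitals.
Hspa5 promoter, chr2:34771840-34772089, + strand: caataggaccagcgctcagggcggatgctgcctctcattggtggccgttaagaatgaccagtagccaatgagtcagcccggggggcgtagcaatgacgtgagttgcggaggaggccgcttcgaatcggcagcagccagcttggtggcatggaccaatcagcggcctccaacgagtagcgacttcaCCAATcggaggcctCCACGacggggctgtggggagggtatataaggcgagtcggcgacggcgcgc

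The protein disulfide isomerases, which form and rearrange disulfide bonds in folding proteins, moved in both directions. Pdia3, which acts with calreticulin and calnexin on glycoproteins, had 5509, 3998, 5130 and 5151 normalized counts in the bigenic and 7410, 6913, 6977 and 7522 in the nontransgenic mice. Pdia6, which also binds the luminal parts of the sensors, had 3374, 3305, 3119 and 3210 in the bigenic and 4302, 4102, 4339 and 5443 in the nontransgenic mice. Neither gene overlapped between groups, and both were lower in bigenic mice in all 8 fits that left out 1 mouse (Pdia3 log2 fold change -0.55 ± 0.10, limma adjusted p of 0.00264, and Pdia6 -0.48 ± 0.09, 0.00401). Pdia4 had a similar log2 fold change of -0.50 but overlapping groups, and a limma adjusted p of 0.0854, which was 0.00801 without bigenic mouse 2 and 0.000229 with array weights. Without nontransgenic mouse 4, the log2 fold change of Pdia4 was -0.32 with a limma adjusted p of 0.196. P4hb, the first isomerase of the family to be described and a subunit of prolyl hydroxylase, went the other way, with 3497, 3135, 2985 and 3135 in the bigenic against 2720, 2656, 2707 and 2764 in the nontransgenic mice. The difference of P4hb was small (log2 fold change 0.23 ± 0.07, limma adjusted p of 0.0296) and passed the test in 3 of the 8 fits without 1 mouse, the adjusted p being 0.0589 to 0.0848 without bigenic mouse 1 or 4 or nontransgenic mouse 1, 2 or 3. Pdia3 shares exon sequence with Catsper2 and Pdia6 with Atp6v1c2, both on the opposite strand, and counting by strand is not stated, so reads of such pairs cannot be told apart. The same holds for Syvn1 with Mrpl49, Ppp1r15a with Tulp2, Shmt2 with Ndufa4l2 and Manf with Vprbp.

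Bigenic mouse 2 and nontransgenic mouse 4 were the highest of their groups in the same genes of the chaperone set. Nontransgenic mouse 4 had the highest nontransgenic value in 14 of the 16 chaperones and isomerases and bigenic mouse 2 the highest bigenic value in 11 of 16, whereas over all genes tested the shares were 35.8% and 43.1%. Both held at once in 11 of the 16 genes (68.8%), compared with 23.6% of all genes. Without bigenic mouse 2, 1 of the 16 genes was called higher and 6 were called lower, against 2683 and 2134 of all 10588 genes. Over the 8 fits without 1 mouse, 0 to 1 of the 16 were called higher and 2 to 6 lower. The same fits called 1512 to 2683 higher and 1113 to 2134 lower over all genes.

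**Figure D3:**
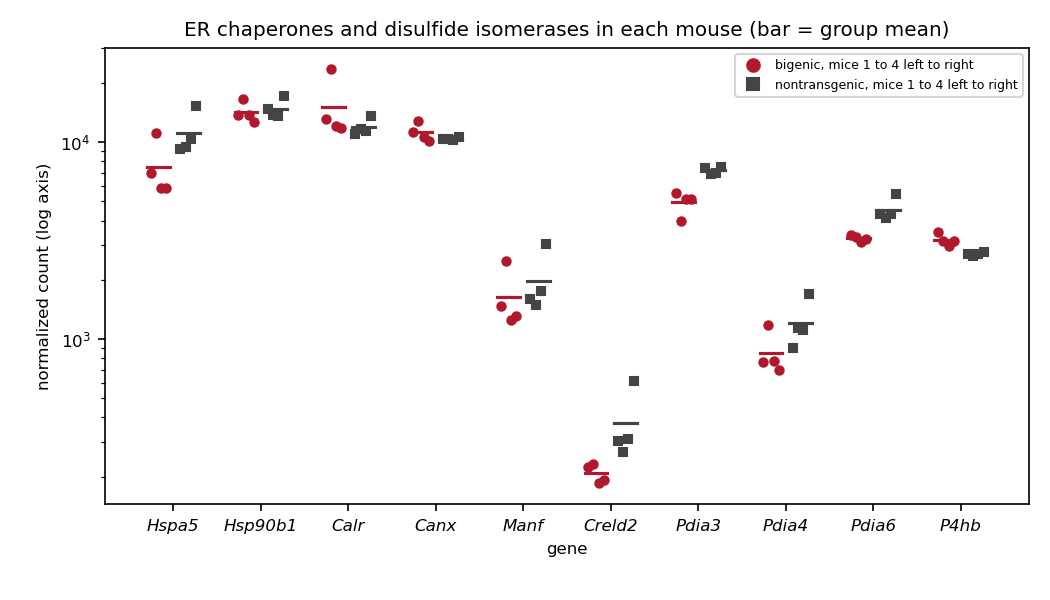
Normalized counts (log axis) of 10 chaperones and disulfide isomerases in each mouse, bigenic in red circles and nontransgenic in dark squares, mice 1 to 4 from left to right, with bars at group means. Pdia3, Pdia6, Creld2 and P4hb show no overlap, and bigenic mouse 2 is far above the other bigenic mice in Hspa5 (11139) and Calr (23628).

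The ER-associated degradation genes were higher or level in bigenic mice. Of 9 genes, limma called 4 higher (44.4%, against 20.5% of all genes tested) and 0 lower (against 15.4%) at the adjusted threshold. Of the 9 genes, 5 had an unadjusted limma p below 0.05, and the median log2 fold change was 0.21. Edem3, a mannosidase-like protein that marks misfolded glycoproteins for disposal, was at 2885, 2502, 2722 and 2768 normalized counts in the bigenic and 1870, 1978, 1800 and 1879 in the nontransgenic mice. Its log2 fold change of 0.53 ± 0.07 (limma adjusted p of 0.000590) was called in all 8 fits without 1 mouse. Syvn1 encodes HRD1, the ubiquitin ligase of the ER membrane. It had 1097, 1522, 1053 and 1150 in the bigenic and 747, 743, 803 and 989 in the nontransgenic mice, with no overlap (log2 fold change 0.55 ± 0.14, limma adjusted p of 0.0113).

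Os9, a lectin that delivers glycoproteins to HRD1, had the largest difference of this role. Os9 stood at 3334, 6053, 2851 and 3067 normalized counts in bigenic mice 1 to 4 and at 2055, 2010, 2094 and 2574 in nontransgenic mice 1 to 4. The groups did not overlap, although bigenic mouse 2 lay well above the others, and the ratio of means was 1.75 with that mouse and 1.41 without it. The log2 fold change of 0.75 ± 0.21 had a limma adjusted p of 0.0210, which was 0.0562 to 0.0606 when nontransgenic mouse 1, 2 or 3 was left out. Edem1, a paralog of Edem3, was at 658, 591, 634 and 664 in the bigenic against 543, 545, 544 and 559 in the nontransgenic mice. Its call was narrow (log2 fold change 0.22 ± 0.07, limma adjusted p of 0.0435) and was kept only in the fit without bigenic mouse 2, the other 7 fits without 1 mouse giving an adjusted p of 0.0633 to 0.109. The remaining genes of the role were Derl1 (log2 fold change 0.21, with a limma adjusted p of 0.0588, or 0.00522 without bigenic mouse 2 and 0.000159 with array weights), Edem2 (0.16), Herpud1 (0.01), Sel1l (-0.05) and Derl2 (-0.05). Sel1l, the adaptor of HRD1, and Syvn1 thus had different values although their proteins form 1 complex, a difference that was not tested.

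The mRNAs of the 3 sensors differed among themselves. Eif2ak3, which encodes PERK, was at 1233, 1431, 1245 and 1297 normalized counts in bigenic mice 1 to 4 and at 985, 834, 917 and 1046 in nontransgenic mice 1 to 4. All bigenic mice were above all nontransgenic mice, and the log2 fold change of 0.46 ± 0.09 (limma adjusted p of 0.00384) was called in all 8 fits without 1 mouse. Ern1, which encodes IRE1α, was low, at 221, 312, 220 and 228 in the bigenic and 202, 231, 184 and 231 in the nontransgenic mice. Its groups overlapped, with a log2 fold change of 0.20 and an adjusted p of 0.305. Atf6 was at 2304, 2384, 2302 and 2227 in the bigenic and 2927, 2383, 2872 and 2685 in the nontransgenic mice, which overlapped by bigenic mouse 2 and nontransgenic mouse 2 alone. Its log2 fold change was -0.23 ± 0.08 with a limma adjusted p of 0.0471, and the call was lost on leaving out any of bigenic mice 1, 3 and 4 and nontransgenic mice 1, 3 and 4 (adjusted p of 0.0765 to 0.135) and with no filter on low values (0.0670).

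Among the other eIF2α kinases, Eif2ak1 (HRI, the kinase that answers to heme deficiency and mitochondrial stress) was called. Eif2ak1 had 2201, 1818, 2349 and 2330 normalized counts in the bigenic and 1678, 1431, 1544 and 1567 in the nontransgenic mice. The groups did not overlap, and the log2 fold change of 0.48 ± 0.10 (limma adjusted p of 0.00460) was called in all 8 fits without 1 mouse. The amino acid sensor Eif2ak4 (GCN2) had a log2 fold change of 0.11 and was called with array weights alone (0.21, adjusted p of 0.00624), and the double-stranded RNA sensor Eif2ak2 (PKR) one of -0.26, with a limma adjusted p of 0.151, or 0.0461 without bigenic mouse 1 and 0.00745 with array weights. Exons of Eif2ak1 overlap Aimp2 and Ankrd61 on the opposite strand.

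Of the transcription factors, Atf4, Atf5 and Ddit3 were higher in bigenic mice and Xbp1 was level. Atf4 (chr15:80085614-80087970 in mm9, + strand), the central transcription factor of the integrated stress response, was at 10199, 11470, 6822 and 7318 normalized counts in bigenic mice 1 to 4 and at 3315, 3207, 3331 and 4049 in nontransgenic mice 1 to 4. The lowest bigenic mouse was thus well above the highest nontransgenic mouse, and bigenic mice 1 and 2 were higher than bigenic mice 3 and 4. The log2 fold change of Atf4 was 1.34 ± 0.16 (limma adjusted p of 0.000321), and its level per kilobase of exon was 5193 in bigenic and 2016 in nontransgenic mice. Among the 47 genes, only Calr had a higher level per kilobase in bigenic mice (5270).

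Atf5, a related factor that also acts in the mitochondrial unfolded protein response, had 497, 647, 397 and 408 normalized counts in the bigenic and 222, 272, 273 and 265 in the nontransgenic mice (log2 fold change 0.89 ± 0.16, limma adjusted p of 0.00222). Ddit3 (chr10:126727830-126733344 in mm9, + strand), which encodes the pro-apoptotic factor CHOP, had 829, 1549, 509 and 645 in the bigenic and 309, 397, 367 and 498 in the nontransgenic mice. Its groups were separated by a narrow gap between bigenic mouse 3 and nontransgenic mouse 4, and the bigenic values spread over a wide range. The log2 fold change of Ddit3 was 1.06 ± 0.30 with a limma adjusted p of 0.0205, which was 0.0638 without nontransgenic mouse 1 and 0.0548 without nontransgenic mouse 3. The ratio of its means was 2.25 with all mice and 1.68 without bigenic mouse 2. Exons of Ddit3 overlap Mars on the opposite strand and those of Atf5 overlap Il4i1 and Nup62. Xbp1, the substrate of IRE1, was at 1348, 1874, 1624 and 1630 in the bigenic and 1423, 1429, 1661 and 1946 in the nontransgenic mice, with full overlap (log2 fold change 0.01 ± 0.13, limma adjusted p of 0.974). These values count all Xbp1 mRNA and do not separate its spliced form.

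Feedback regulators of the response held the largest fold change of the 47 genes. Chac1 (chr2:119176965-119180117 in mm9, + strand), a glutathione-degrading enzyme induced by ATF4 and CHOP, was at 268, 393, 158 and 222 normalized counts in bigenic mice 1 to 4 and at 86, 76, 82 and 78 in nontransgenic mice 1 to 4. The nontransgenic mice lay within a narrow range and every bigenic mouse was above it. The log2 fold change was 1.60 ± 0.24 (limma adjusted p of 0.00102), which is 3.04-fold. The ratio of means was 3.23, or 2.68 without bigenic mouse 2. Sesn2, a leucine sensor upstream of mTORC1, was at 352, 447, 243 and 331 in the bigenic and 165, 148, 178 and 163 in the nontransgenic mice (log2 fold change 1.04 ± 0.17, limma adjusted p of 0.00160). Both genes were called in all 8 fits without 1 mouse, but neither reached the read filter in any nontransgenic mouse, so being higher was a condition of their test.

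Ppp1r15a encodes GADD34, the inducible subunit that directs phosphatase to eIF2α, and Ppp1r15b its constitutive counterpart. Ppp1r15a had 371, 596, 275 and 341 normalized counts in the bigenic and 246, 234, 225 and 258 in the nontransgenic mice, without overlap. Its log2 fold change was 0.66 ± 0.20 with a limma adjusted p of 0.0295, which lay between 0.0557 and 0.0771 without bigenic mouse 1 or nontransgenic mouse 1, 2 or 3. Ppp1r15b, in contrast, had overlapping groups and a log2 fold change of 0.06, and Ddit4 (REDD1, an inhibitor of mTORC1) had one of 0.10, and neither was called.

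**Figure D4:**
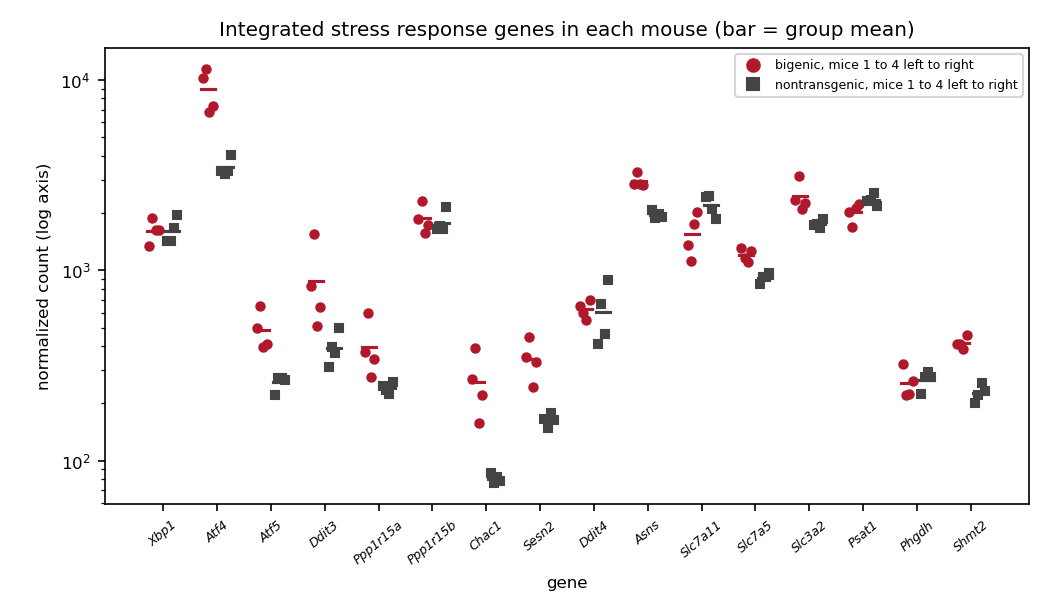
Normalized counts (log axis) in each mouse of the 16 tested transcription factors, feedback regulators and amino acid genes, bigenic in red circles and nontransgenic in dark squares, mice 1 to 4 from left to right, with bars at group means. All bigenic mice lie above all nontransgenic mice in 10 of the 16 genes, and in 2362 of all 10588 genes tested. Of the 10 genes, Chac1 and Sesn2 reached the read filter in bigenic mice alone. Xbp1, Ppp1r15b, Ddit4, Slc7a11, Psat1 and Phgdh overlap (39.0% of all genes tested do not overlap, in either direction). Bigenic mouse 2 is the highest bigenic mouse for Atf4 (11470), Ddit3 (1549) and Chac1 (393).

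The amino acid genes of the program were mostly higher in bigenic mice. Of 7 genes, 4 were called higher (57.1%, against 20.5% of all genes) and 1 was called lower (14.3%, against 15.4%). Asns, asparagine synthetase, was at 2849, 3276, 2833 and 2806 normalized counts in bigenic mice 1 to 4 and at 2085, 1876, 1986 and 1900 in nontransgenic mice 1 to 4. Shmt2, the mitochondrial serine hydroxymethyltransferase, was at 410, 412, 388 and 455 in the bigenic and 200, 221, 255 and 232 in the nontransgenic mice. In both genes the groups were far apart relative to their spread (Asns log2 fold change 0.58 ± 0.08, limma adjusted p of 0.000517, and Shmt2 0.88 ± 0.10, 0.000297). Slc7a5 and Slc3a2 encode the light and heavy chains of the large neutral amino acid transporter LAT1. Slc7a5 had 1307, 1156, 1109 and 1270 in the bigenic and 849, 928, 919 and 970 in the nontransgenic mice (log2 fold change 0.40 ± 0.08, limma adjusted p of 0.00477). Slc3a2 had 2347, 3131, 2104 and 2255 in the bigenic and 1725, 1748, 1668 and 1868 in the nontransgenic mice (0.47 ± 0.12, 0.0122). Neither transporter chain overlapped between groups, and all 4 genes were called in all 8 fits without 1 mouse.

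Slc7a11, the cystine/glutamate exchanger that pairs with the same heavy chain, went the opposite way. It was at 1351, 1123, 1743 and 2019 normalized counts in the bigenic and 2438, 2446, 2112 and 1852 in the nontransgenic mice, and bigenic mouse 4 was above nontransgenic mouse 4. For Slc7a11 the log2 fold change was -0.53 ± 0.18 with a limma adjusted p of 0.0387, which lay between 0.0749 and 0.106 without bigenic mouse 1 or nontransgenic mouse 1, 2 or 3. The enzymes of serine synthesis were not called: Phgdh was at 320, 221, 224 and 263 in the bigenic and 223, 275, 291 and 276 in the nontransgenic mice (log2 fold change -0.06, adjusted p of 0.767), and Psat1 had a log2 fold change of -0.22 (adjusted p of 0.0982, or 0.0305 with array weights). Slc7a11, Phgdh and Psat1 are expressed in brain largely by astrocytes. Of 15 astrocyte marker genes, limma called 0 higher (against 20.5% of all genes) and 5 lower (33.3%, against 15.4%). Of these 15 genes, 7 had an unadjusted limma p below 0.05, and the median log2 fold change was -0.23. Their summed level was 152001 to 169633 normalized counts in the bigenic and 180119 to 192107 in the nontransgenic mice, and none was at 0. The part of astrocyte RNA in the lower Slc7a11 was not tested.

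**Figure D5:**
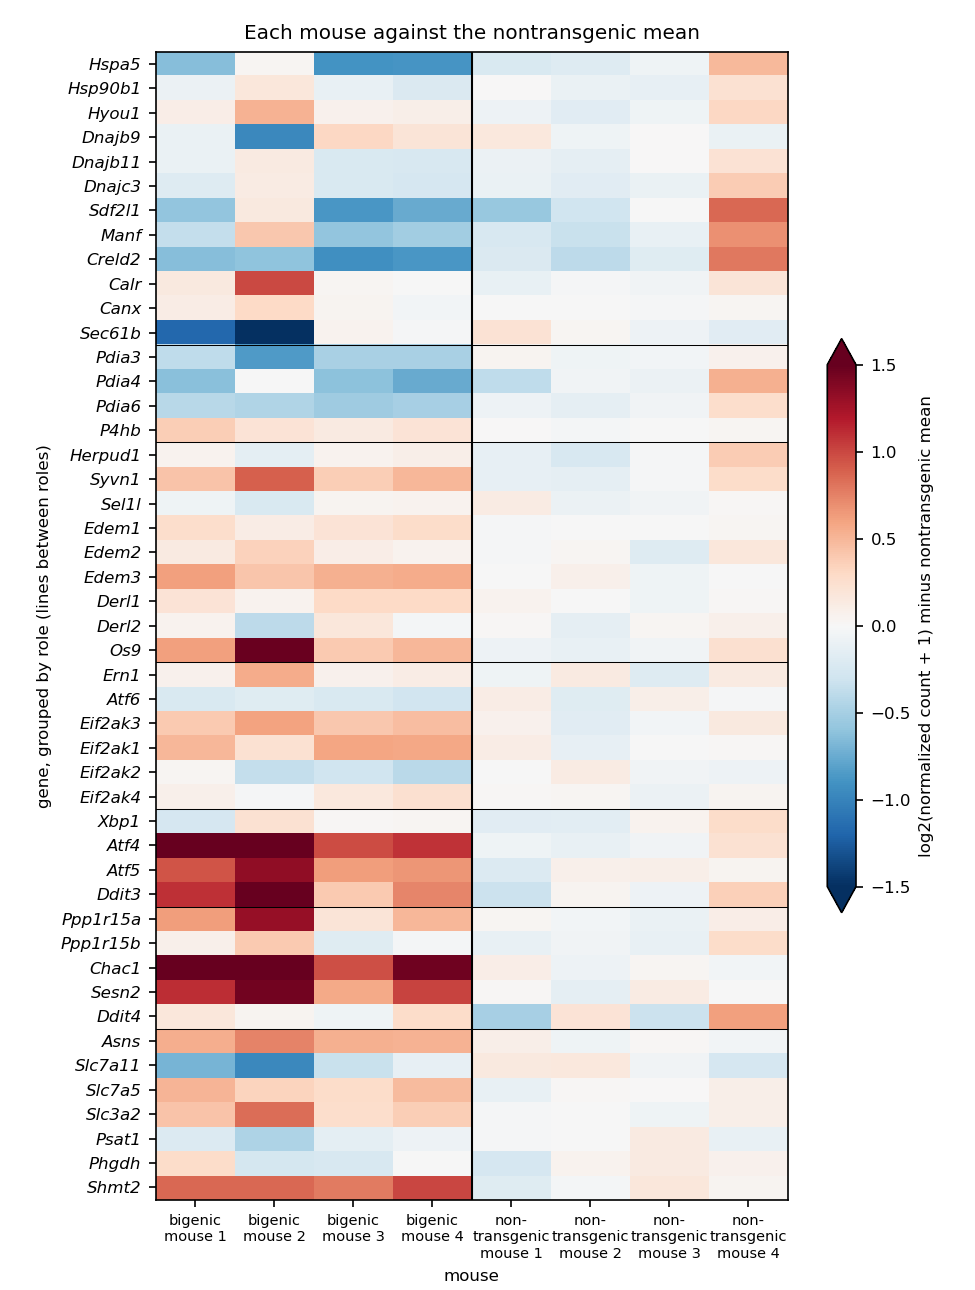
Log2 level of each of the 47 genes (rows, grouped by role) in each mouse (columns) relative to the nontransgenic mean, red above and blue below, with the scale ending at 1.5 in either direction. The rows from Atf4 to Sesn2 include the reddest cells in all 4 bigenic mice, whereas in the chaperone rows bigenic mouse 2 and nontransgenic mouse 4 differ from the rest of their groups.

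The C/EBP-ATF response element, TGATGNAA, binds ATF4 with its partners, and it is shown because genes that carry it were higher, lower or level. It was found in 6 of the 44 genes with a promoter window and in 3.97% of all windows, on either strand. The copies that lie before the gene start are listed with 10 bases on each side, 5′ to 3′ on the strand that carries the element, with its fixed bases in capitals, and the copy of Trib3 lay 14 bases after the start.
Asns, chr6:7693215-7693242, - strand: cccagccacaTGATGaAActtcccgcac
Chac1, chr2:119351039-119351066, - strand: ctggcaggagTGATGcAAcggcagggaa
Slc7a11, distal copy, chr3:50443662-50443689, - strand: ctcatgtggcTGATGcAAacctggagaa
Slc7a11, proximal copy, chr3:50443643-50443670, + strand: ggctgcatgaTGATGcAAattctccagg
Herpud1, chr8:94386307-94386334, - strand: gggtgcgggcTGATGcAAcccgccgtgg
Atf3, chr1:191183426-191183453, + strand: gcggacttggTGATGcAAgtgcgagaag

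Of the genes with this element and a value, Asns and Chac1 were called higher, Slc7a11 was called lower and Herpud1 was not called. The 250 bases before the start of Chac1 are given in full, as the gene with the largest fold change, with the element in capitals as it reads on this strand. No ER stress response element was found in this window.
Chac1 promoter, chr2:119350992-119351241, + strand: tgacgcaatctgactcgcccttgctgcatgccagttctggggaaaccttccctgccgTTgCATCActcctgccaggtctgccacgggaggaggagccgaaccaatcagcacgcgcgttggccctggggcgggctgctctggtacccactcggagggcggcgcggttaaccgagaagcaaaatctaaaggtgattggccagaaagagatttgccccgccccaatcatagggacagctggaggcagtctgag

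To place these genes among the rest of their pathways, 164 further genes were taken in 5 lists by known function, of which 139 were tested. Among them 35 (25.2%, against 20.5% of all genes) were higher and 14 (10.1%, against 15.4%) lower in bigenic mice, with a median log2 fold change of 0.14. In all 35.3% of them were called, close to the 35.9% of all genes. The groups in which these genes reached the read filter were not determined. Low genes called higher may thus have been tested only because they were higher in bigenic mice. Examples are Creb3l2 (means of 166 normalized counts in nontransgenic and 290.5 in bigenic mice) and Sec24d (183.2 and 268.8). The list of further ATF4 and CHOP targets had 16 of 33 tested genes called higher (48.5%) and 2 lower (6.06%), with a median log2 fold change of 0.38. Aminoacyl-tRNA synthetases made up a large part of the 16 (Aars, Cars, Eprs, Lars, Nars, Sars, Tars, Wars and Yars), while Gars and Mars were not called. The genes of this list with the smallest adjusted p were the neutral amino acid transporter Slc1a4 (log2 fold change 0.91) and the cationic amino acid transporter Slc7a1 (0.74). By contrast, the 46 genes of ER translocation, glycosylation and folding had 8 called higher and 7 lower, with a median of 0.02, although Stt3a, a catalytic subunit of the oligosaccharyltransferase, was at 1429, 1646, 1401 and 1380 normalized counts in the bigenic and 827, 770, 729 and 775 in the nontransgenic mice (log2 fold change 0.91), and the thioredoxin-like Tmx1 had a log2 fold change of 0.51. Without bigenic mouse 2 this list gave 14 called higher and 10 lower, and the same fit called 2683 higher and 2134 lower of all 10588 genes.

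In the degradation machinery outside the 50 genes, 7 of 28 genes were called higher (25.0%, against 20.5% of all genes) and 3 lower (10.7%, against 15.4%). The smallest adjusted p-values of this list were those of Rnf5, an ER-anchored ubiquitin ligase (log2 fold change 1.23), and Nploc4, a cofactor of the p97 ATPase (0.58). Of 20 other genes of unfolded protein response signalling, 3 were called higher (15.0%) and 2 lower (10.0%). Wfs1, an ER membrane protein that limits ATF6 signalling, was at 892, 821, 819 and 764 normalized counts in the bigenic and 2424, 2464, 1877 and 2045 in the nontransgenic mice, with no overlap (log2 fold change -1.41 ± 0.10, limma adjusted p of 2.46e-05). A930001N09Rik (Crebrf), a regulator of a CREB3-type factor, had one of 0.83. Among 12 eIF2 and eIF2B subunits and associated factors, Gcn1l1, the activator of GCN2, was called higher (0.53) and 0 were called lower by limma, with 4 at an unadjusted p below 0.05. Eif2b4, a subunit of the exchange factor eIF2B, had a log2 fold change of 0.32 and was not called (adjusted p of 0.0774), although its groups did not overlap.

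Marker genes of the cell types of cortex were measured in the same fit, which called 20.5% of all genes higher and 15.4% lower. Of 15 neuronal markers, 1 was called higher and 7 lower (median log2 fold change -0.19, summed levels 240445 to 313680 normalized counts in the bigenic and 299125 to 322250 in the nontransgenic mice). Microglial markers had 5 of 10 called lower and 0 called higher by limma, with 6 at an unadjusted p below 0.05 and a median of -0.38. Oligodendrocyte markers (1 higher and 0 lower of 14, by limma, with 2 at an unadjusted p below 0.05) and endothelial and mural markers (0 higher and 1 lower of 11, with 2 at an unadjusted p below 0.05) were largely not called. The 4 choroid plexus markers with a value, of 12 listed, reached the read filter in bigenic mice alone, so that being higher there was a condition of having a value, with summed levels of 721 to 1252 in the bigenic and 149 to 258 normalized counts in the nontransgenic mice. No marker with a row was at 0 in any mouse. The part of these cell types in the differences of the stress genes was not tested.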

How the data were processed

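Poly(A)+ RNA of right cortex was sequenced in 50-base single-end reads from 4 bigenic and 4 nontransgenic mice. The authors trimmed reads with cutadapt, aligned them to mm9 with Bowtie 0.12.7, counted them with bedtools and normalized them. The deposited signal is 1 normalized count for each of 28662 transcripts and mouse, in whole numbers. These are not raw counts, and how they were scaled is not given in the sources used here. A second table held the authors' fold changes and p-values, and from it only gene symbols were taken. Columns give the group but no replicate number, so mice are numbered by column order and not by sample title.

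The 10588 genes that reached 10 RPM, taken against each column's sum, in any mouse were tested with limma 3.58.1 (R 4.3.3; lmFit, eBayes with trend) on log2(normalized count + 1), with Benjamini-Hochberg adjustment over all of them and a threshold of 0.05. Fold changes of low genes are understated on this scale. Values in every mouse were given for 13 core genes (Hspa5, Hsp90b1, Calr, Xbp1, Atf4, Atf6, Ern1, Eif2ak3, Ddit3, Ppp1r15a, Trib3, Asns and Phgdh) where they had a row and for every other gene called, and for other pathway lists the 2 genes with the smallest adjusted p were named. Gene positions and exon overlaps are from GENCODE M1 (mm9), and promoter windows from RefSeq (GRCm38.p6). The genes and lists were chosen with earlier results of these data known. The limma fit was tested on simulated data with known changes in a small part of the genes. The simulated scatter was independent between genes, so a mouse set apart in many genes, such as bigenic mouse 2, was not covered. Reads per mouse were estimated from the smallest step between low values, and since 3 of 8 columns hold more than 1 normalized count per read, whole reads were not recovered. Floors cover counting error only. Alternatives were 2 other pseudocounts, 2 other filters, rescaling, quantile normalization, array weights and leaving out each mouse.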

Additional observations from a re-analysis of the deposited data

Results flagged for a closer look

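The 47 genes gave 94 groups of 4 values over both groups of mice. In 17 of these (18.1%), 1 mouse lay apart from the other 3 by Dixon's criterion. The criterion flags about 1 in 20 groups if groups are independent, or 4.7 of 94. These groups are not independent, because all genes were read in the same mice. The share over all genes tested was not determined. The 10 other pathway genes named gave 0 such groups of 20. They were named for their small adjusted p, which favours genes with little scatter within a group, so these shares cannot be compared. Bigenic mouse 2 was the highest bigenic mouse in 8 of the 17: Hyou1 (3590 normalized counts, the others 2622 to 2682), Dnajc3 (2229), Manf (2500), Calr (23628, the others 11831 to 13134), Pdia4 (1179), Os9 (6053, the others 2851 to 3334), Ern1 (312) and Asns (3276). It was the lowest bigenic mouse in Herpud1 (962, the others 1105 to 1133). Nontransgenic mouse 4 was the highest of its group in 7: Dnajc3 (2661), Manf (3025), Creld2 (611, the others 267 to 310), Edem1 (559), Os9 (2574), Atf4 (4049, the others 3207 to 3331) and Ppp1r15b (2150). Nontransgenic mouse 1 was the lowest in Atf5 (222). Dnajc3, Manf and Os9 were set apart in both of these mice. Bigenic mouse 2 also had the fewest estimated reads (10600000), and the part of depth in these values was not tested.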

How the results depend on the processing

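No paired analysis was possible because the columns carry no replicate numbers. Over the 8 fits that each left out 1 mouse, the genes called higher numbered 12 to 18 and those called lower 3 to 8, against 17 and 5 with all mice. The same fits gave 1512 to 2683 and 1113 to 2134 over all genes, and 30 to 47 and 10 to 19 over the other pathway genes. Limma array weights, which give each mouse a weight by its scatter, raised the calls to 12 lower among these genes, to 3611 higher and 2844 lower over all genes, and to 56 higher and 27 lower among the other pathway genes; the cause was not tested. No called gene changed sign, but 9 genes that were not called did. Array weights turned the log2 fold change of Dnajb9 from -0.14 to 0.21 (limma adjusted p of 0.0499), of Sel1l to 0.058, of Derl2 to 0.077 and of Ppp1r15b to -0.021, and quantile normalization turned that of Herpud1 to -0.043, of Xbp1 to -0.059 and of Ppp1r15b to -0.0043. Without 1 mouse the log2 fold change ranged from -0.14 to 0.011 for Hsp90b1, -0.29 to 0.14 for Dnajb9, -0.071 to 0.14 for Herpud1, -0.085 to 0.0080 for Sel1l, -0.12 to 0.063 for Derl2, -0.067 to 0.10 for Xbp1, -0.043 to 0.16 for Ppp1r15b, -0.061 to 0.31 for Ddit4 and -0.17 to 0.0067 for Phgdh. Of the 22 genes called, 14 were called in all 8 fits without 1 mouse, 22 kept their sign in them, and 11 were called under all 15 alternatives. A floor of 3 reads is at most 6.20 normalized counts, and the part of depth in these values was not tested. With 4 mice in each group, a difference that was not called is not shown to be absent.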
